A study of Mus musculus with 6 samples.

Results

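The genes described are the SGK kinases Sgk1 and Sgk3, the forkhead factors Foxo1, Foxo3 and Foxo4, the Krüppel-like factor Klf2 and the sphingosine-1-phosphate receptor S1pr1. They are 7 of the 18193 genes named on the array, and were taken as every probe set that the array annotation gives to exactly 1 of them, which made 15 of 45037 probe sets. A probe set is a group of short probes that reads 1 transcript region. The axis was picked with earlier results in view, foremost the change of Sgk1 and Klf2 between genotypes. For that reason the genotype difference of these 7 genes is given as a description, with per-array values and standard errors, without p-values. Differences of other genes in the pathway carry limma adjusted p-values, adjusted over all 18193 genes.

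The arrays came from 3 samples of E2A-deficient and 3 samples of wild-type cells. Every sample held DN2 cells (immature thymocytes without CD4 or CD8, at the stage of commitment to the T lineage) sorted from fetal thymus of FVB mice. E2A stands for the E proteins made from the gene Tcf3, transcription factors that bind E-box sequences in DNA. The labels do not name the mutant allele, the fetal age, or whether thymi were pooled or replicates came from separate animals, so the p-values speak for the spread among these 6 arrays alone. The levels of Xist and of the Y-linked gene Eif2s3y, given with the other array values, differed between the wild-type samples.

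SGK and AKT kinases lie downstream of PI3K and are switched on by PDK1 and the mTORC2 complex. They phosphorylate FOXO proteins, which then bind 14-3-3 proteins and leave the nucleus. In T cells nuclear FOXO1 promotes genes such as Il7r, Ccr7 and Klf2. KLF2 in turn drives S1pr1, the receptor through which mature T cells sense sphingosine-1-phosphate and leave the thymus. These links concern protein activity as well as transcript level, and only transcript level was measured here.

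Median intensity was 77.4 to 79.0 on the 6 arrays, and the upper quartile 131 to 136. Tcf3 was lower in E2A-deficient cells, at 236, 229 and 281, against 477, 421 and 414 in wild-type cells (log2 change -0.81, SE 0.0963, limma adjusted p = 0.00532). Of its other 2 probe sets, 1 was called lower (-0.49) and 1 was not called (-0.24). Whether its probe sets lie in the mutated part is not given in the labels. The DN2 markers Il2ra (CD25) and Kit were bright in both groups, with means of 1005 and 346 in E2A-deficient and 906 and 287 in wild-type cells, while Thy1 (-1.32) and Notch1 (-1.46) were lower in E2A-deficient cells (limma adjusted p = 0.00158 and 0.00215). These were the 2 that passed of 8 DN2 and T-lineage progenitor markers, whose summed intensity was 3740 to 4369 in E2A-deficient and 5907 to 6528 in wild-type samples. Endothelial cells are rich in Klf2 and S1pr1. Of their 11 markers 0 passed in either direction, 8 lay below the array median on all 6 arrays, and their summed intensity was 833 to 869 in E2A-deficient and 821 to 897 in wild-type samples. Of 8 markers of double-positive and mature T cells, 0 rose and 2 fell (Cd5 and Trat1), with sums of 767 to 833 in E2A-deficient and 731 to 837 in wild-type samples. Lyz2, 1 of 8 myeloid markers, was lower, and 0 of 5 NK and innate lymphoid, 5 B-lineage, 5 thymic epithelial and 4 erythroid markers passed. Summed epithelial markers were 440 to 485 in E2A-deficient and 393 to 431 in wild-type samples, and summed NK and innate lymphoid markers 744 to 804 and 832 to 987. The part of these cell types in the results was not tested. Beta-actin control probes gave a ratio of 5' to 3' signal, a gauge of RNA integrity and amplification, of 0.149 to 0.165 in E2A-deficient samples and 0.104, 0.162 and 0.0981 in wild-type samples. Xist, transcribed from the inactive X of female cells, read 1901, 1247 and 2154 in E2A-deficient and 3055, 4456 and 58.7 in wild-type samples. Eif2s3y, on the Y chromosome, read 230, 339 and 208 in E2A-deficient and 204, 58.0 and 343 in wild-type samples. Wild-type replicate 3 was thus low in the female transcript and wild-type replicate 2 in the male one, while the other 4 arrays carried both. In bulk samples a smaller share of expressing cells and less RNA per cell cannot be told apart.

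Across the 15 probe sets 3 were called (limma adjusted p under 0.05 over all probe sets), 2 higher (Sgk1 and Klf2) and 1 lower (Foxo3). Over all probe sets 1.79% were called, 1.21% higher and 0.58% lower, and since the members were chosen on this contrast nothing is read from that comparison. In 6 of the 15 the 3 arrays of one genotype all lay above the 3 of the other, as did 16.9% of all probe sets. The 12 probe sets that were not called include all those of Sgk3, Foxo1, Foxo4 and S1pr1.

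**Figure D1:**
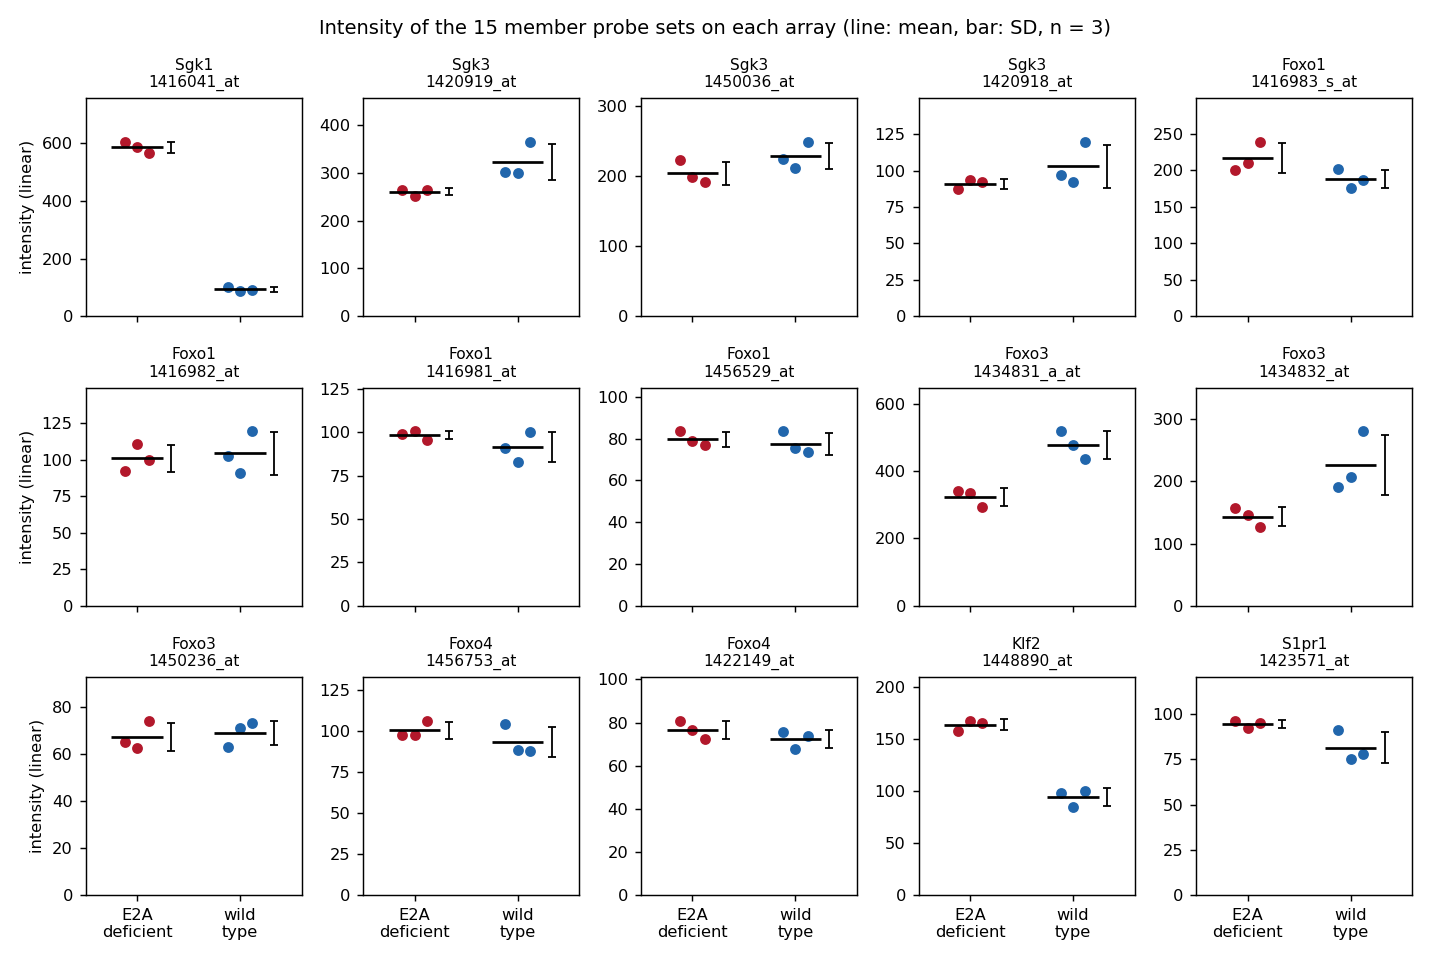
Linear intensity (vertical axes, each from 0) of the 15 probe sets of Sgk1, Sgk3, Foxo1, Foxo3, Foxo4, Klf2 and S1pr1, with 1 point per array, E2A-deficient samples left in red and wild-type samples right in blue. Horizontal lines are means and bars SD (n = 3). Sgk1 separates the groups by the widest margin (587 against 93.3 on average), and all 4 Foxo1 probe sets overlap.

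Sgk1, the serum- and glucocorticoid-inducible kinase, showed the largest difference of the 7 genes. Its intensity was 606, 587 and 568 in the 3 E2A-deficient samples, against 103, 87.3 and 89.9 in the 3 wild-type samples. The wild-type values lay just above the array median and below the upper quartile, while each E2A-deficient value was far above it, and the groups did not overlap. The means were 587 ± 19.1 and 93.3 ± 8.26 (SD, n = 3), a log2 change of 2.64 (SE 0.0743) or 6.25-fold on the log2(intensity + 1) scale, the 12th largest rise among 45037 probe sets. The lowest value on an array was 41.4 to 45.1, so a fold against a dim group understates the difference. Adding 32 in place of 1 before the logarithm gave 2.31. Adjusted for the beta-actin ratio the change was 2.70 (SE 0.101). Sgk1 has a single probe set here, so no further probe set could be set beside it.

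Genes whose profile over the 6 arrays lay nearest to that of Sgk1, by root mean square difference of mean-centred log2 values among 18192 other genes, were Hmga2, St6gal1, Sh2d1a, Lmo4 and Rora. The distances were 0.122, 0.147, 0.151, 0.167 and 0.276 log2 units, and the changes of these genes 2.63, 2.51, 2.46, 2.91 and 2.16. Hmga2, a chromatin protein of fetal stem cells, read 787, 857 and 693 in E2A-deficient against 136, 131 and 107 in wild-type samples. With 2 groups of 3 arrays, likeness of this kind is mostly a likeness in the size of the genotype difference.

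RefSeq (GRCm38.p6) places Sgk1 at chr10:21882184-21999903, on the plus strand, with 6 annotated start sites. E proteins bind the E-box CANNTG, so the letters of each promoter window (250 bases before to 50 after a start) were searched for it. It reads the same on both strands. At least 1 E-box stood in 4 of the 6 Sgk1 windows, against 72.3% of all 32851 promoter windows of that length. The narrower form CAGNTG (searched on both strands, and contained in CANNTG), which E2A prefers, stood in 2 of the 6, against 51.4% of all windows. These shares are no higher than that background. The 2 Sgk1 windows with the narrower form are printed, to show where the letters lie. Capitals mark E-boxes. In the window of the outermost start (chr10:21881934-21882233) the CAGNTG match began 25 bases before the start, and in the window of a downstream start (chr10:21991973-21992272) 34 bases after it.
Sgk1 outermost start: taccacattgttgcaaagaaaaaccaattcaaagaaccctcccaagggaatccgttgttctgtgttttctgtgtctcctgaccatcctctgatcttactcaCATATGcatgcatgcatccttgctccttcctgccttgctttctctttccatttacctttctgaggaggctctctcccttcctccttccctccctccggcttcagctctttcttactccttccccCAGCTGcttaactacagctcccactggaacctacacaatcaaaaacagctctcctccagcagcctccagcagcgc
Sgk1 downstream start: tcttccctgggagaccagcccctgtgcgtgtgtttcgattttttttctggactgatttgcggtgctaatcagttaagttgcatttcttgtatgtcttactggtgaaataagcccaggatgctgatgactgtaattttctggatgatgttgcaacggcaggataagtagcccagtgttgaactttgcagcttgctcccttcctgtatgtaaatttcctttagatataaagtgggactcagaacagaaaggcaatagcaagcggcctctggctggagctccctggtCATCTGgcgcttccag
A match of letters is not a binding site, and the array does not tell which start the Sgk1 signal came from.

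Sgk3, the relative of Sgk1 that sits on endosomes through its phosphoinositide-binding domain, ran the other way without being called. Its brightest probe set read 264, 252 and 264 in E2A-deficient samples, against 302, 300.3 and 365 in wild-type samples (log2 change -0.30, SE 0.0854). These groups did not overlap, and wild-type replicate 3 stood above the other wild-type arrays. The second probe set read 223, 199 and 191 against 225, 212 and 249 (-0.16, SE 0.0849), and the third 87.2, 93.3 and 92.4 against 97.1, 92.0 and 120.0 (-0.17, SE 0.101). Both overlapped between groups. Adjusted for the beta-actin ratio the third went to -0.01. In all 15 alternative settings the 3 probe sets stayed below 0 and uncalled.

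**Figure D2:**
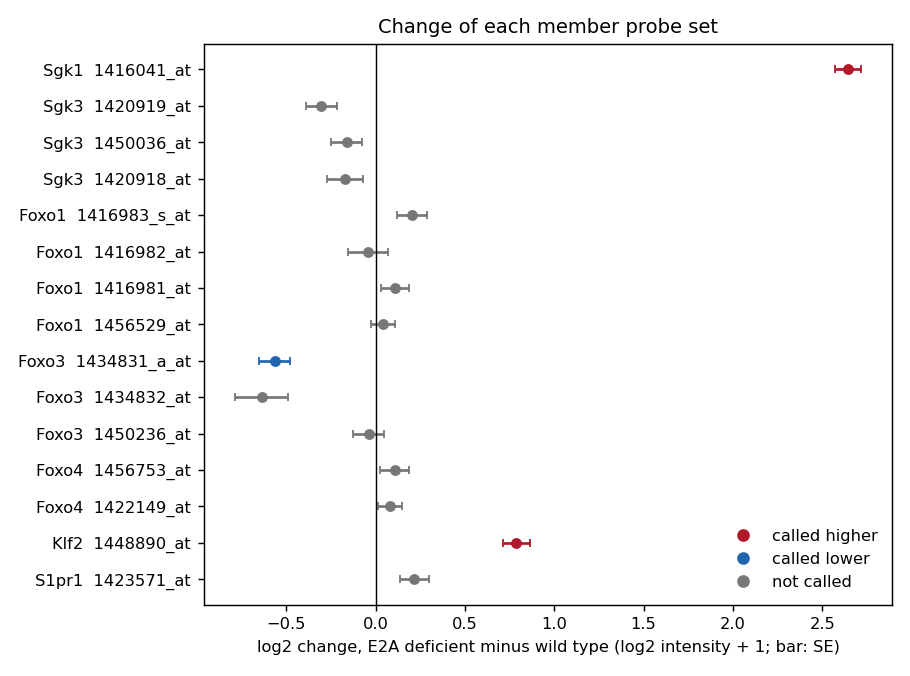
Log2 change (E2A deficient minus wild type, on log2(intensity + 1)) of each of the 15 probe sets, with SE bars. Red marks Sgk1 (2.64) and Klf2 (0.79), called higher, and blue the Foxo3 probe set called lower (-0.57), while grey probe sets were not called and lie between -0.64 and 0.22.

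Among the FOXO genes, whose products are the forkhead factors that SGK and AKT restrain, 1 of the 3 Foxo3 probe sets was called, and none of Foxo1 or Foxo4. The brightest Foxo3 probe set read 341, 334 and 292 in E2A-deficient samples, against 518, 478 and 436 in wild-type samples. Its suffix (_a_at) is one of those counted here as shared, and the setting without shared probe sets was not run for members. All E2A-deficient values lay below all wild-type ones, with means of 322 ± 26.4 and 478 ± 41.0 (SD, n = 3) and a log2 change of -0.57 (SE 0.0882). A dimmer probe set of Foxo3 had a change of similar size, at 157, 146 and 127 against 190, 207 and 280 (-0.64, SE 0.149). Its groups did not overlap either, but wild-type replicate 3 stood well above the other wild-type arrays and it was not called. The last probe set lay below the array median on all 6 arrays (65.4, 62.6 and 74.2 against 63.3, 71.1 and 73.1) and showed no separation (-0.04, SE 0.0859). A probe set annotated to both Foxo3 and Gm38485, left out by the rule, read 84.1 ± 8.97 in E2A-deficient and 81.1 ± 6.25 in wild-type samples (SD, n = 3).

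The Foxo3 call was lost when E2A-deficient replicate 1 (-0.61), 2 (-0.59) or 3 (-0.50) or wild-type replicate 1 (-0.50) or 2 (-0.56) was left out, and after adjustment for the beta-actin ratio (-0.61). The direction held in all 15 settings, between -0.64 and -0.50. The changes of Sgk1 and Klf2 were 2.31 to 2.71 and 0.63 to 0.93 over the settings. Since these genes were chosen for this difference, the ranges describe how the values move with the processing and are no further evidence for it.

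**Figure D3:**
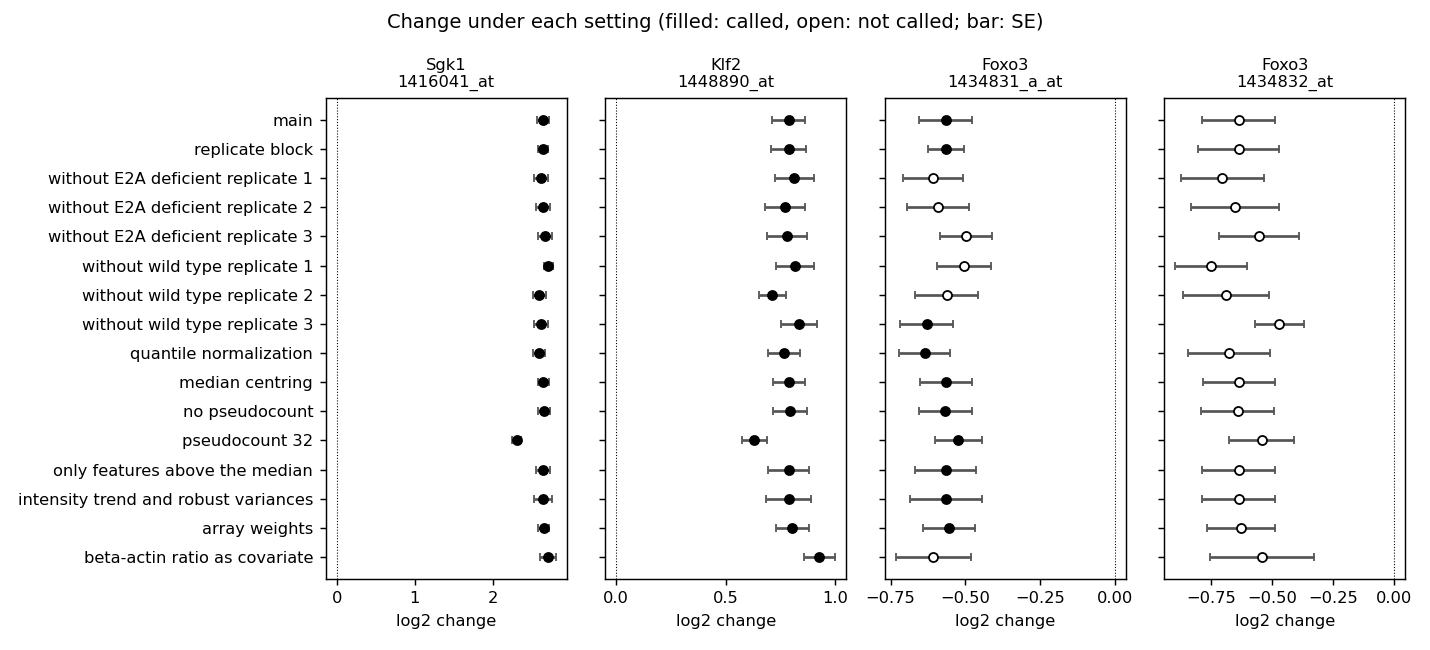
Log2 change with SE (horizontal axes, a separate scale per panel) of Sgk1, Klf2 and the brighter pair of Foxo3 probe sets under the main and 15 alternative settings (rows). Filled points were called and open points were not. Sgk1 and Klf2 are filled throughout, the first Foxo3 probe set is open in 6 settings, and the second is open in all.

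Foxo1, the FOXO factor best known for control of T-cell homing and survival genes, was measured by 4 probe sets. The brightest, whose suffix marks probes shared between transcripts, read 201, 211 and 239 in E2A-deficient samples, against 201, 176 and 187 in wild-type samples (log2 change 0.20, SE 0.0845). Its lowest E2A-deficient value fell just under the highest wild-type one, so the groups touched. The other 3 probe sets gave changes of -0.04, 0.11 and 0.04 with overlapping groups, at mean intensities of 79.7 to 101 in E2A-deficient and 77.5 to 104 in wild-type cells. Adjusted for the beta-actin ratio, the brightest gave 0.30 and these 3 gave 0.15, 0.23 and 0.05 in the same order, none called. The first of the 3 (-0.04) ranged from -0.14 to 0.15 over the settings. Foxo4, which lies on the X chromosome, was dim. Its brighter probe set read 97.5, 97.4 and 106 in E2A-deficient samples, against 104, 88.2 and 87.7 in wild-type samples (0.11, SE 0.0821), and its other probe set averaged 76.5 ± 4.16 and 72.4 ± 3.97 (0.08, SE 0.0675). Both overlapped. The wild-type array with the lowest Xist signal (replicate 3) gave 87.7, beside 88.2 on the wild-type array with the most. The part of sex in the Foxo4 values was not tested.

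Neither the Foxo1 nor the Foxo3 promoter window held the narrower E-box form, and the wider CANNTG stood in that of Foxo1. The window of Foxo3, the FOXO gene with a call, is printed for comparison with Sgk1 (chr10:42276646-42276945, minus strand, 5' to 3' along the gene). It holds no E-box, so no letter is in capitals.
Foxo3 start: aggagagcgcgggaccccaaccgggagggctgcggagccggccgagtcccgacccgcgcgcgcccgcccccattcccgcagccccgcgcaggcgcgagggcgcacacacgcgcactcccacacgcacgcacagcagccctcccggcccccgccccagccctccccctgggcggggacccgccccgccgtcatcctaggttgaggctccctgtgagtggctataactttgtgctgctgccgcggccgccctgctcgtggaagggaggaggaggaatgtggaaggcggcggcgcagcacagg
The FOXO element GTAAACA, searched on both strands, was found in 0 of the 9 windows of Sgk1, Foxo1, Foxo3 and Klf2, and in 3.65% of all windows. The absence of these letters says nothing of FOXO binding elsewhere.

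Klf2, the zinc-finger factor of quiescence and trafficking, was higher in E2A-deficient cells. It read 158, 168 and 166 there, against 98.1, 84.8 and 101 in wild-type cells. The lowest E2A-deficient array exceeded the highest wild-type array by more than the range of either group. Means were 164 ± 5.25 and 94.5 ± 8.53 (SD, n = 3), a log2 change of 0.79 (SE 0.0768) or 1.73-fold. As for Sgk1, the wild-type level lay not far above the array median, where a fold understates the difference. Adjusted for the beta-actin ratio the change was 0.93 (SE 0.0718). The nearest profiles were those of Tspoap1, Tns4, H2-Oa, Arhgap20 and Rab19, at distances of 0.0532 to 0.0737 log2 units and with changes of 0.67 to 0.79.

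The promoter window of Klf2, the other gene called higher, is printed to set beside those of Sgk1 and holds no E-box (chr8:72318812-72319111, plus strand).
Klf2 start: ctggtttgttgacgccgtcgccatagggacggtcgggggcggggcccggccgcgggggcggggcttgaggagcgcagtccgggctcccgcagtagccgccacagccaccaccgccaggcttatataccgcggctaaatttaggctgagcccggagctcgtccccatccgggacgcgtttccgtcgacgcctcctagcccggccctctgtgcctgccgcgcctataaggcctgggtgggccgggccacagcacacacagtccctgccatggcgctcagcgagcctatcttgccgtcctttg
The promoter sequences searched held no window for Sgk3, Foxo4 or S1pr1.

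S1pr1, the egress receptor that KLF2 drives in T cells, was close to the array median. Its intensity was 96.3, 92.5 and 94.9 in E2A-deficient samples, against 91.3, 75.4 and 77.9 in wild-type samples. The groups did not overlap, but wild-type replicate 1 lay near the E2A-deficient values, and the probe set was not called (log2 change 0.22, SE 0.0798; 0.16 to 0.30 over the 15 settings). The difference between Klf2 and S1pr1 in size of change was not tested.

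The genes around these 7 were taken as 8 lists of upstream kinases, partners and targets, 139 genes in all, of which 131 were measured. In the union 10 rose and 6 fell, which is 12.2% called against 3.46% of all 18193 genes (2.4% higher and 1.06% lower, or 437 and 193 genes). After quantile normalization 360 of the 617 genes called were higher, and in the union 10 of 16. Many list genes were known from earlier results of these data, and the share is a description. The median change of the union was 0.05, and that of all genes 0.01.

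Upstream, 20 genes of PI3K, PDK1, AKT and mTORC2 were measured. Of these 1 rose and 2 fell (15% called, against 3.46% of all genes, median 0.05). Both that fell encode inhibitors. Pik3ip1, a membrane inhibitor of PI3K, read 197, 164 and 150.4 in E2A-deficient samples, against 313, 348 and 298 in wild-type samples (log2 change -0.91, SE 0.109, limma adjusted p = 0.00570), and it was called in all 17 alternative settings run for genes. Deptor, an inhibitor of mTOR, read 431, 381 and 352 against 655, 575 and 525 (-0.59, SE 0.106, limma adjusted p = 0.0285). The kinase Akt1 rose, at 439, 365 and 410 against 302, 295 and 276 (0.47, SE 0.0819, limma adjusted p = 0.0254). The other probe set of Pik3ip1 (-0.48) was not called. Nor were the other 5 of Deptor (-0.24 to 0.16) or the other 3 of Akt1 (0.00 to 0.10). The Deptor call ended on omitting E2A-deficient replicate 2 (adjusted p 0.0925) or 3 (0.0986) or wild-type replicate 1 (0.0585) or 2 (0.0820), and that of Akt1 on omitting E2A-deficient replicate 1 (0.0810) or 3 (0.0961) or wild-type replicate 2 (0.0725) or 3 (0.0786), over their settings 0.0141 to 0.229 and 0.0204 to 0.256. Rictor (-0.01) and Pdpk1 (0.09), the genes of the mTORC2 core and of PDK1, did not pass.

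Of 11 SGK substrates and partners 0 passed by limma, and 2 had an unadjusted p under 0.05 (18.2%, against 15.7% of all genes, with a median change of 0.04). Ndrg1, a direct SGK1 substrate at the protein level, read 91.0, 105 and 166 in E2A-deficient samples, against 244, 183 and 221 in wild-type samples (-0.87, SE 0.218, limma adjusted p = 0.0890). E2A-deficient replicate 3 stood apart, and without it the gene passed (-1.13, limma adjusted p = 0.0140; over its settings 0.0140 to 0.583). It also passed among features above the median (0.0354) and with robust, trended variances (0.0391). Its other 4 probe sets gave -0.46 to -0.14, none called. Nedd4l, the ubiquitin ligase that SGK1 inhibits (-0.06), Tsc22d3, a glucocorticoid-induced SGK1 partner (0.16), and Ndrg2 (0.16) did not pass.

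Partners and regulators of FOXO proteins gave 0 calls among 15 measured genes by limma, with 6 at an unadjusted p under 0.05 (40.0%, against 15.7% of all genes) and a median of 0.12. The smallest p-values belonged to the 14-3-3 genes Ywhah (461 ± 38.4 against 363 ± 16.2, SD, n = 3; 0.34, limma adjusted p = 0.0674) and Ywhaq (0.31, 0.0725). Ywhah passed without E2A-deficient replicate 2 (0.0484), and both passed with probe sets averaged (0.0438 and 0.0331), over their settings 0.0438 to 0.438 and 0.0331 to 0.473. Foxp1, a forkhead factor that competes with FOXO1 at Il7r, had a change of 0.12 and did not pass.

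Of 29 FOXO-responsive genes measured, 3 were higher, 3 lower and 23 not called, with a median of 0.01. That is 20.7% called, against 3.46% of all genes (2.4% higher and 1.06% lower). The death ligand Fasl had the smallest p-value of the list, at 57.4, 60.2 and 58.7 in E2A-deficient samples, against 113, 118 and 131 in wild-type samples (-1.02, SE 0.0692, limma adjusted p = 6.77e-04). Its other probe set gave 0.02. Bach2, a transcriptional repressor of lymphocytes, read 96.0, 87.9 and 66.0 against 171, 157 and 184 (-1.04, SE 0.138, limma adjusted p = 0.00894). Of the other 2 Bach2 probe sets (-0.64 and -0.10) 1 was called lower. The autophagy gene Gabarapl1 (-0.43) was the remaining one that fell (limma adjusted p = 0.0476), named after its values were seen, to complete the count. In the other direction, Tnfsf10, which encodes the death ligand TRAIL, read 208, 221 and 213 against 158, 150.3 and 143 (0.50, SE 0.0626, limma adjusted p = 0.00684). Bcl2l11, the gene of the death factor BIM, rose by 0.54 (SE 0.0782, limma adjusted p = 0.0133), and the stress-response gene Sesn3 by 0.44 (SE 0.0736, limma adjusted p = 0.0216). Bcl2l11 rested on 1 of 5 probe sets, and omitting wild-type replicate 2 ended its call (adjusted p 0.0525; over its settings 0.00963 to 0.779). Sesn3 lost its call without any 1 of E2A-deficient replicates 1 to 3 or wild-type replicates 2 and 3 (adjusted p 0.0584 to 0.0866; over its settings 0.0178 to 0.178).

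Il7r and Ccr7, FOXO1 targets of T-cell survival and homing, did not pass. Il7r, the interleukin-7 receptor chain, read 361, 365 and 518 in E2A-deficient samples, against 592, 416 and 601 in wild-type samples, with overlapping groups (-0.37, SE 0.186, limma adjusted p = 0.416). Adjusted for the beta-actin ratio its change was -0.01 (limma adjusted p = 0.994; over its settings 0.190 to 0.994). Ccr7, a lymph-node homing receptor, was dim at 89.2, 80.1 and 97.0 against 57.6, 66.1 and 71.1, without overlap (0.45, SE 0.101, limma adjusted p = 0.0656). It passed when variances were trended and robust (0.00648) or probe sets were averaged (0.0465), over its settings 0.00648 to 0.373. Rag1, which FOXO1 activates in lymphoid precursors, gave -0.66 without passing (limma adjusted p = 0.148).

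**Figure D4:**
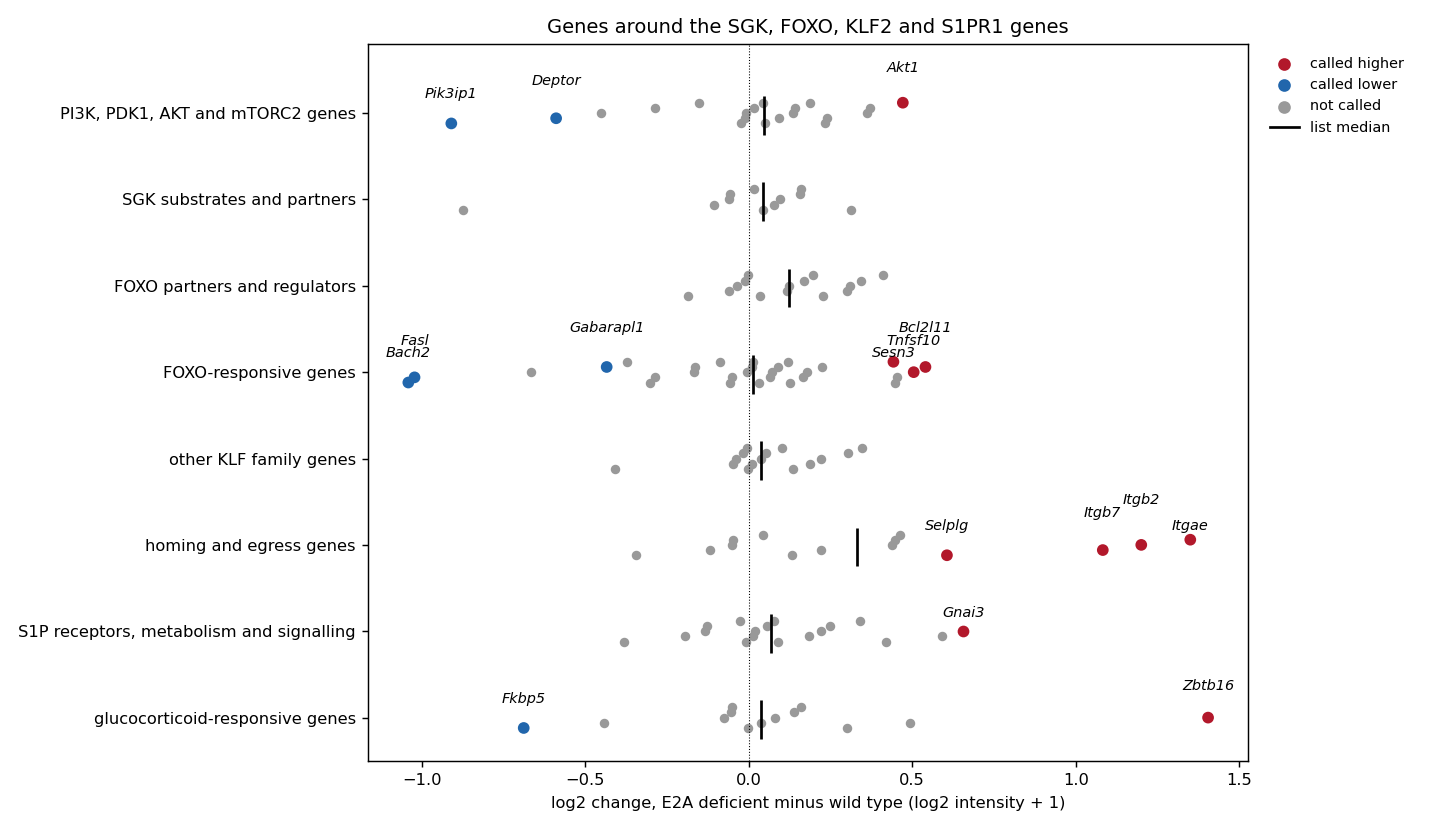
Log2 change (E2A deficient minus wild type, horizontal axis) of the measured genes of 8 lists (rows), with 1 point per gene and a black bar at each list's median. Red and blue points passed upward and downward (limma adjusted p under 0.05) and are named. The homing and egress list has the highest median (0.33), with Itgb7, Itgb2, Selplg and Itgae to the right.

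Homing and egress genes other than S1pr1 gave the highest share of calls, 4 of 14 (28.6%, against 3.46% of all genes). All 4 were higher, and the median change was 0.33. The list was chosen with earlier results of these data known, so its share is a description. The integrin chain Itgb7, which pairs with Itgae or Itga4 for mucosal homing, read 469, 412 and 463 in E2A-deficient samples, against 212, 215 and 205 in wild-type samples (1.08, SE 0.0683, limma adjusted p = 5.19e-04). Its partner Itgae (CD103) read 184, 117 and 176 against 64.9, 62.8 and 54.2 (1.35, SE 0.172, limma adjusted p = 0.00752). Itgb2, the beta chain of leukocyte integrins, read 309, 318 and 325 against 119, 155 and 141 (1.20, SE 0.0982, limma adjusted p = 0.00121). Selplg, the selectin ligand PSGL-1 through which progenitors enter the thymus, read 1140, 1119 and 1071 against 788, 678 and 724 (0.61, SE 0.0714, limma adjusted p = 0.00532). Without E2A-deficient replicate 1 the brightest probe set of Itgae was another one, which gave 0.37 and did not pass (adjusted p 0.161; over its settings 8.79e-04 to 0.161). Itga4 (0.46), the chemokine receptors Ccr9 (0.44), Cxcr4 (-0.12) and Cxcr3 (-0.05), and S1pr4 (0.22) did not pass.

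In the sphingosine-1-phosphate list 1 of 18 genes rose and 0 fell (5.56% called, against 3.46% of all genes, median 0.07). Gnai3, an inhibitory G-protein subunit of the kind that S1PR1 couples to, read 851, 678 and 709 in E2A-deficient samples, against 426, 515 and 475 in wild-type samples (0.66, SE 0.107, limma adjusted p = 0.0198). Omitting E2A-deficient replicate 3 (0.0611) or wild-type replicate 3 (0.0587) ended the call, over its settings 0.00668 to 0.241. The other Gnai3 probe set gave 0.16 and was not called. Cd69, whose product pulls S1PR1 off the cell surface, read 66.6, 83.2 and 70.4 against 84.9, 79.7 and 61.1, with overlapping groups (-0.03, limma adjusted p = 0.970). The other receptors S1pr2 (-0.13), S1pr3 (-0.20) and S1pr5 (0.06) did not pass.

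Of the 15 other KLF genes 0 passed by limma, and 3 had an unadjusted p under 0.05 (20.0%, against 15.7% of all genes, with a median change of 0.04). Klf7 came nearest, at 173, 175 and 166 in E2A-deficient samples, against 146, 124 and 135 in wild-type samples (0.35, SE 0.0732, limma adjusted p = 0.0524). Another of its probe sets was called higher (0.60). Klf7 passed without wild-type replicate 1 (0.0419), after median centring (0.0439), with array weights (0.0387) and with probe sets averaged (0.0107), over its settings 0.0107 to 0.163. Klf6 had a change of 0.19 and did not pass (limma adjusted p = 0.131).

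Sgk1 is a classic glucocorticoid-induced gene, so 13 further genes of that response were counted. Of these 1 rose and 1 fell (15.4% called, against 3.46% of all genes, median 0.04). Zbtb16, which encodes the factor PLZF, read 669, 751 and 758 in E2A-deficient samples, against 337, 250.2 and 242 in wild-type samples (1.40, SE 0.130, limma adjusted p = 0.00213). Of the other 2 Zbtb16 probe sets (0.69 and 1.84) 1 was called higher. Fkbp5, a co-chaperone that glucocorticoids induce, fell to 447, 351 and 401 in E2A-deficient samples, against 532, 736 and 674 in wild-type samples (-0.69, SE 0.137, limma adjusted p = 0.0413). Fkbp5 lost its call without any 1 of E2A-deficient replicates 1 to 3 or wild-type replicates 2 and 3 (adjusted p 0.0661 to 0.128; over its settings 0.0105 to 0.152). It also did so after median centring (0.0525) and with a pseudocount of 32 (0.0619). Its other 2 probe sets gave -0.16 to 0.02, neither called. The receptor gene Nr3c1 gave -0.05 and did not pass.

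After adjustment for the beta-actin ratio, 6 of the list genes were called in place of 16, and 123 of all genes in place of 630. Deptor, Akt1, Tnfsf10, Bach2, Bcl2l11, Sesn3, Itgae, Gnai3 and Fkbp5 were among those that then did not pass (adjusted p 0.104 to 0.256), as was Tcf3 (0.106), while Pik3ip1, Fasl, Itgb7, Itgb2, Selplg and Zbtb16 passed. The changes themselves kept their direction and most of their size: Deptor -0.62, Akt1 0.44, Tnfsf10 0.50, Bach2 -0.99, Bcl2l11 0.55, Sesn3 0.47, Itgae 1.30, Gnai3 0.53, Fkbp5 -0.85 and Tcf3 -0.75.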

How the data were processed

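Total RNA of sorted cells was amplified by more than 1 round of in vitro transcription before hybridization, per the labels' protocols. Per the submitters' processing notes the tool was RMA (a method that corrects background, quantile-normalizes and summarizes probes), with no version given. The authors deposited 1 linear intensity per probe set and array, without detection calls. How they came to be on the linear scale was not stated. From the deposited intensity, log2(intensity + 1) was analysed without further normalization or filter, and 64 control probe sets were left out. Of 45037 probe sets 34945 named 1 gene, 932 several and 9160 none. Symbols matched RefSeq (GRCm38.p6) by Entrez ID for 34741 and not for 204.

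Limma 3.58.1 (R 4.3.3) fitted genotype (lmFit and eBayes, two-sided tests, p-values adjusted by Benjamini-Hochberg, called under 0.05) once per probe set (members) and once per gene, read by its brightest probe set (lists). On simulated data over 45037 probe sets a log2 change of 0.5 was called in 49.2%, 1 in 82.8% and 2 in 98.8%, with 5.07% of calls false. Each simulation planted 200 changes in normal noise, drawn independently with each probe set's own spread. It held no difference in RNA quality between arrays, so these shares describe that setting and may not carry over to the real arrays. The small number of arrays, 3 a group, limits the precision. Figures used matplotlib 3.10.9 (Python 3.11.15).

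Members and lists were chosen with earlier results of these data known. Named were every member probe set, the called genes of each list up to the 5 with the smallest p (or the 2 smallest where none was called), 9 well-known targets or partners, of which 1 is not reported here, and the 5 profiles nearest to Sgk1 and to Klf2. Other list genes were given for their role. Alternatives were the replicate block, each array left out, quantile normalization, median centring, pseudocounts of 0 and 32, array weights, robust variances with an intensity trend, features above the median alone, the beta-actin ratio, and for genes the mean of probe sets and no shared probe sets (suffix _s_at, _x_at or _a_at).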

Additional observations from a re-analysis of the deposited data

How the results depend on the processing

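The 7 genes were chosen on this contrast, so what follows describes how their values move with the processing and is no evidence of steadiness. Of 15 member probe sets 3 were called, and 2 to 3 when 1 array was left out or under the other alternatives. Over all probe sets 804 were called in the main setting, 471 with the replicate number as a block, 114 after adjustment for the beta-actin ratio, and 358 to 563 when 1 array was left out. For genes the count was 630, against 123 with the beta-actin ratio and 320 to 534 with 1 array left out. List genes called were 16, against 6 with the beta-actin ratio and 10 to 16 with 1 array left out. The shared replicate numbers were not taken as pairs, since the labels do not say that they pair the samples. Deviations of same-numbered arrays correlated at 0.041, 0.041 and -0.036. Replicates 1 and 2 correlated best with their own number and replicate 3 did not. With 3 arrays a group, values this near 0 cannot decide whether the arrays were paired. The block left 459 genes, 13 list genes and all 3 member probe sets called. Among named genes Akt1, Sesn3, Gnai3 and Fkbp5 lost their call under the block (limma adjusted p 0.0529, 0.0749, 0.0722 and 0.113).

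Of the named genes 3, none of them called, changed sign. With 1 array left out Nedd4l ranged from -0.23 to 0.11, above 0 without E2A-deficient replicate 2 (0.0088) or wild-type replicate 3 (0.11). Foxp1 ranged from -0.052 to 0.23, below 0 without wild-type replicate 3. Cd69 ranged from -0.17 to 0.065, at 0.038, 0.065 and 0.020 without E2A-deficient replicate 1, wild-type replicate 1 and wild-type replicate 2. Bach2 gave -0.10 and Bcl2l11 0.09, neither called, without shared probe sets, and with the mean of probe sets Akt1 gave 0.16, Deptor -0.17, Bcl2l11 0.20 and Gnai3 0.41, none called. Those settings read other probe sets of the same genes. Otherwise the cause was not tested. Dim members (S1pr1, Foxo4 and 3 Foxo1 probe sets) lay near the array median, where small changes are compressed.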
